A study of Mus musculus with 300 samples.

Results

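Il2ra-expressing, Kit-high progenitors were examined among the early thymic progenitors (ETPs) of the E15.5 mouse thymus. Deposited values were analysed for 67, 69, 64 and 61 cells of the labelled mice 1A, 1B, 2A and 2B, and 130 of these cells had a Kit value above the median of all cells, which was 8.28 on the deposited log2 scale. Members were chosen by these 2 deposited values: the 61 of the 130 cells with an Il2ra value of at least 3.5 were the members, and the 69 with a lower Il2ra value were the comparison cells. All cells came from 1 strain, labelled 5x polychromILC, and carried its reporter alleles, among them tagBFP at Id2, hCD2 at Gata3, mTeal at Rora and TdTomato at Bcl11b, so that members and comparison cells shared genotype, tissue, age and sort. The labels give 300 single cells from these 4 mouse ids, no treatment and no control strain; 39 labelled cells were not analysed here. The sources used here do not say whether a mouse id is 1 embryo or a pool of embryos, nor which surface markers gated the ETPs. The p-values below therefore measure the spread between 4 labelled mice, which may in part be technical.

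Progenitors that seed the thymus pass through early stages at which they still express the stem cell factor receptor Kit, and the surface appearance of CD25, the interleukin-2 (IL-2) receptor alpha chain encoded by Il2ra, marks the step from the ETP to the DN2 stage. Notch signalling in the thymus induces TCF-1, the product of Tcf7, and later Gata3 and Bcl11b, the last of which seals T-lineage commitment. Progenitor genes such as Flt3, the receptor for the FLT3 ligand, are switched off along this path. Kit and Il2ra are also expressed by some innate lymphoid and mast cells, so that these transcripts by themselves do not fix a cell type.

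The members numbered 15 in mouse 1A, 11 in 1B, 17 in 2A and 18 in 2B, and the comparison cells 20, 22, 11 and 16. Members made up 42.9%, 33.3%, 60.7% and 52.9% of the Kit-high cells of these mice, a mean of 47.5 ± 11.9% (SD, n = 4). The exact 95% Clopper-Pearson intervals of the 4 shares, which cover counting error only, ran from 18.0% at the lowest to 78.5% at the highest and overlapped. By sequencing pool the share was 41.03% (32 of 78 cells) in pool 1 and 55.8% (29 of 52) in pool 2. Mouse 2A, the only mouse in both pools, gave 6 of 10 cells in pool 1 and 11 of 18 in pool 2. Below the Kit median, 27 cells (20.6%, interval 14.04 to 28.6%) also reached the Il2ra threshold.

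The rule used Il2ra and Kit, and their values are given as a description. Il2ra (chr2:11642807-11693193, plus strand, GRCm38) ran from 3.67 to 10.19 in the members with a median of 6.43, and from -0.44 to 3.44 in the comparison cells with a median of 0.34. The threshold fell in a sparsely filled stretch: the comparison cells nearest to it had 3.27 and 3.44, and the members nearest to it 3.67 and 3.88. In 47 comparison cells Il2ra was at the repeated lowest value of the gene, the level taken here as no reads; a gene is called detected in a cell where its value differs from that level. The other 22 comparison cells had an Il2ra value above that level but below the threshold. Those of mouse 2B on plate JW8 had only 0.46 to 0.87, where the level of no reads was -0.44. Kit (chr5:75574916-75656722) did not separate the classes within the Kit-high cells: the medians were 9.008 and 9.005, and the mean difference over the mice was 0.00 ± 0.17 (SD, n = 4). The number of detected genes per cell was alike, with a median of 8098 (5073 to 9632) in members and 8018 (5678 to 9286) in comparison cells, and the median mitochondrial share was 3.54% against 3.30%.

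**Figure D1:**
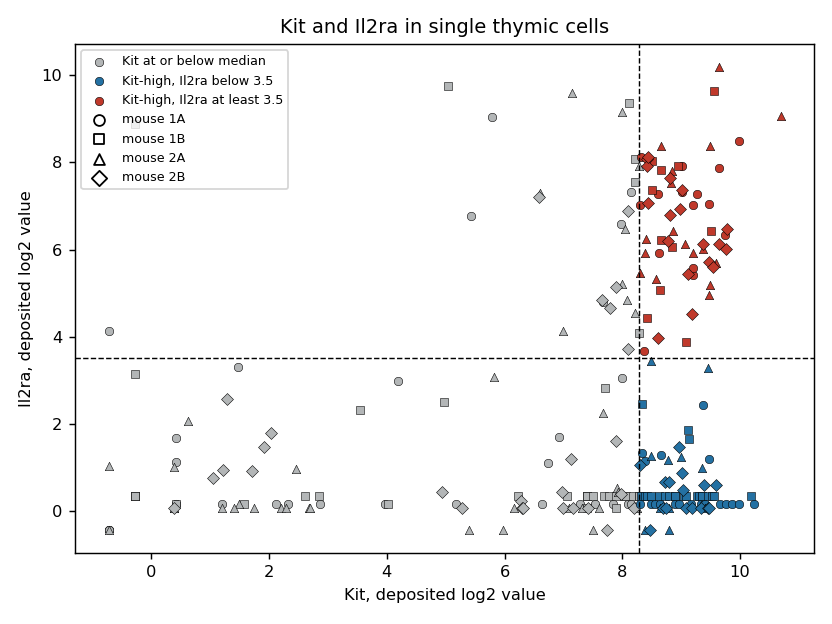
Deposited log2 values of Kit (horizontal) and Il2ra (vertical) in each cell analysed, with symbols for the 4 labelled mice and dashed lines at the Kit median of 8.28 and at the Il2ra threshold of 3.5. The 61 members (red) lie between 3.67 and 10.19 for Il2ra, and most of the 69 comparison cells (blue) lie at the level of no reads.

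Of the label markers that the rule did not use, both Tcf7 and Lck were detected in 57 of 61 members (93.4%) and 56 of 69 comparison cells (81.2%), and together with Gata3 in 53 of 61 (86.9%) and 49 of 69 (71.01%). These markers were thus common in both classes. Bcl11b was detected in 13 of 61 members, and Tcf7, Lck, Gata3 and Bcl11b together in 11 (18.0%), against 3 of 69 comparison cells (4.35%). Flt3, a gene of the earlier stage, was still detected in 27 of 61 members. Of the recombinase that rearranges antigen receptor genes, Rag1 was detected in 9 members (14.8%) and 12 comparison cells (17.4%), and Rag2 in 34 members (55.7%) and 36 comparison cells (52.2%). Of the CD3 chains of the T-cell receptor complex, Cd3e was detected in 3 cells of each class and Cd3d in 35 members (57.4%) and 44 comparison cells (63.8%), and at least 1 of the 3 chains in 40 members (65.6%) and 54 comparison cells (78.3%). Ptcra, the invariant partner of the pre-T-cell receptor, was detected in 23 members (37.7%) and 20 comparison cells (28.99%). The cells are called Il2ra-expressing Kit-high cells here. A high level of dendritic, mast and basophil, macrophage or natural killer (NK) genes was found in 3 of 61 members and 3 of 69 comparison cells. Among the cells at or below the Kit median it was found in 62. Innate lymphoid genes were not part of this check.

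Gene by gene, the mean of the comparison cells was subtracted from that of the members within each mouse and pool, and the 4 differences per gene were tested against 0 with limma. None of 12465 genes passed a Benjamini-Hochberg adjusted p of 0.05 in either direction (0% called). At an unadjusted p under 0.05 there were 704 genes (5.65%), of which 380 (3.05%) were higher and 324 (2.6%) lower in members. The middle of all genes sat at -0.01, and the 5th and 95th percentiles of the difference were -0.67 and 0.69 on the log2 scale. The differences below are accordingly values that did not pass the test, and the adjusted p given with them is limma's. Comparison cells with Il2ra below the threshold and members share their mice, pools and plates, but the files also hold 4 sets of cells corrected separately, and these cross the mouse labels: 1 set holds 11 members of mouse 2A and 9 of 2B, and another 5 and 9.

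Tcf7 (chr11:52252371-52283014, minus strand) had the second smallest p of the genes with higher values in members. Listing the mice in the order 1A, 1B, 2A, 2B here and below, its mean log2 value was 5.86, 6.78, 7.31 and 6.42 in the members and 4.02, 3.78, 5.54 and 4.93 in the comparison cells. The lowest member mean lay above the highest comparison mean, a pattern that 2.02% of all genes tested showed in this direction. The mean difference was 2.02 ± 0.67 (SD, n = 4; limma SE 0.36, adjusted p = 0.457), with members higher in 4 of 4 mice. Inside mouse 2A the difference held in each pool, with 6.15 against 4.15 in pool 1 and 7.94 against 6.34 in pool 2. Tcf7 was detected in 57 of 61 members and 56 of 69 comparison cells, so that the gap lay in level more than in detection.

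Lck (chr4:129548344-129573641), the kinase that starts T-cell receptor signalling, did not follow Tcf7. The members had 9.33, 9.48, 9.25 and 9.16, and the comparison cells 8.98, 9.11, 9.46 and 9.45. Members were thus higher in mice 1A and 1B and lower in 2A and 2B, with a mean difference of 0.05 ± 0.35 (SD, n = 4; adjusted p = 0.994). The sign of so small a value turned under 9 of the other settings tried. Lck was detected in 61 of 61 members and 68 of 69 comparison cells, so that within the Kit-high cells it marked both classes.

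Trbc1 (chr6:41538218-41539881), a constant segment of the T-cell receptor beta chain, had member means of 9.46, 9.64, 9.72 and 9.25 and comparison means of 8.55, 8.21, 8.49 and 8.81. The classes did not overlap between mice, as in 2.02% of all genes tested, in a gene also picked by p. The mean difference was 1.00 ± 0.43 (SD, n = 4, adjusted p = 0.457). In mouse 2A it rested on pool 1, with 9.64 against 6.07, while pool 2 gave 9.76 against 9.87. The neighbouring Trbc2 is nearly identical in sequence, so that reads may be split between the copies; its own difference was 0.41 ± 0.56. All 61 members and all 69 comparison cells had Trbc1 transcripts.

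Most segments of the T-cell receptor loci had higher values in members. Of 27 tested segments, 25 had a difference above 0, against 6062 of all 12465 genes tested. In 4 of 4 mice 13 were higher, against 6.31% of all genes tested. The median difference was 0.57. None passed the adjusted test, and 8 were higher at an unadjusted p under 0.05 by limma, against 3.05% of all genes. The segments overlap or neighbour each other in the genome and are not independent. Outside the beta locus, and chosen after their values were seen, Tcrg-C1 (chr13:19214103-19217024), a gamma constant segment, differed by 1.46 ± 0.67, and Trdc (chr14:54142851-54148868), the delta constant segment, by 1.16 ± 0.80. Trdc was detected in 44 of 61 members and 33 of 69 comparison cells, and Tcrg-C1 in 46 and 42.

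Among the T specification genes, 20 of 29 tested had a difference above 0, against 6062 of all 12465 genes tested. In 4 of 4 mice 8 were higher (Tcf7, Gata3, Lat, Zap70, Cd5, Trbc1, Tox and Prkcq) and 0 were lower. The shares over all genes tested were 6.31% higher and 6.71% lower in 4 of 4 mice. The median difference was 0.27, and 9 of the 29 were higher at an unadjusted p under 0.05 by limma, against 3.05% of all genes. Gata3 (chr2:9857078-9890034), a zinc finger factor needed for T specification, had member means of 5.68, 6.10, 5.76 and 5.89 and comparison means of 4.91, 5.20, 5.27 and 5.04. Its difference was small but alike in the mice, at 0.75 ± 0.18 (SD, n = 4, adjusted p = 0.859). The means did not overlap, as in 2.02% of all genes tested. The gap was not alike against the comparison cells in which Il2ra was not detected. Those had Gata3 means of 5.77, 5.41, 5.39 and 4.27, and in mouse 1A they lay above the members. Tox, an HMG-box factor of lymphoid development, differed by 1.03 ± 0.28, with member means from 4.95 to 5.56 and comparison means from 4.05 to 4.44. Prkcq, the protein kinase C theta of T cells, differed by 1.06 ± 0.46, but its member means of 5.67, 4.92, 6.02 and 4.13 overlapped the comparison means of 4.41, 3.76, 4.599 and 3.74. It lies on the same chromosome as Il2ra, at chr2:11172108-11301222. Lat, the adaptor of T-cell receptor signalling, differed by 0.83 ± 0.42. The CD3 genes and Ptcra did not share this pattern: Ptcra differed by 0.02, and Cd3g was detected in 16 members and 19 comparison cells.

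Bcl11b (chr12:107910403-108003602) was at the level of no reads in most cells of both classes. It was detected in 13 of 61 members (21.3%, interval 11.9 to 33.7%) and 3 of 69 comparison cells (4.35%, interval 0.906 to 12.2%); these intervals pool the cells of the 4 mice, cover counting error only and are no test between the classes. The gene passed the filter of detection in at least 10% of Kit-high cells through the members alone. The detections were concentrated in pool 2, with 11 of 29 members and 3 of 23 comparison cells, against 2 of 32 members and 0 of 46 comparison cells in pool 1, where a count of 0 allows a share of up to 6.52%. Its mean log2 value in members was 0.84, 0.29, 1.55 and 1.27, and in comparison cells 0.18, 0.29, 0.26 and 0.32, so that mouse 1B, with no detection in 11 members, showed no difference. The mean difference was 0.72 ± 0.55 (SD, n = 4; adjusted p = 0.792), higher in 3 of 4 mice. The reporter at this locus, TdTomato, was detected in 5 members and 1 comparison cell, too few to be tested.

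**Figure D2:**
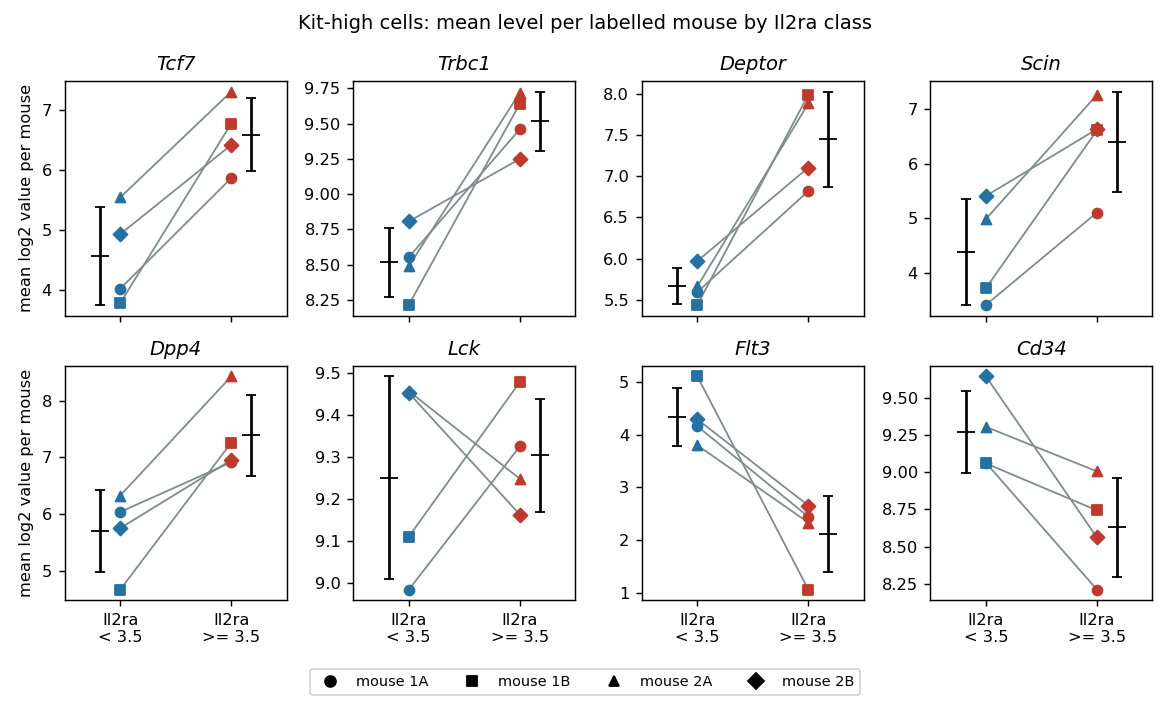
Mean log2 value of 8 genes in comparison cells (blue, Il2ra below 3.5) and members (red, Il2ra at least 3.5) of each labelled mouse, joined by a line per mouse; black bars give the mean ± SD of the 4 mice. Lines go up for Tcf7, Trbc1, Deptor, Scin and Dpp4 and down for Flt3 and Cd34 in 4 of 4 mice, and cross for Lck; none of these differences passed the adjusted test.

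The other 3 of the 5 genes with the smallest p among higher values were Deptor, Scin and Dpp4, which are not in the T specification list. Deptor (chr15:55112317-55259271), an inhibitor of the mTOR kinase, had member means of 6.82, 7.99, 7.88 and 7.10 and comparison means of 5.596, 5.44, 5.66 and 5.97. The difference was 1.78 ± 0.71 (SD, n = 4, adjusted p = 0.457). It came without overlap between mice, as in 2.02% of all genes, in a gene picked by p from the same values. Deptor was detected in 60 of 61 members and 61 of 69 comparison cells. Scin (chr12:40059769-40134228), which encodes the actin-severing protein scinderin, differed by 2.02 ± 0.72 (adjusted p = 0.457). Its member means of 5.11, 6.61, 7.26 and 6.64 overlapped comparison means of 3.42, 3.72, 4.99 and 5.41. Dpp4 (chr2:62330073-62412231), the surface peptidase CD26, had 6.91, 7.26, 8.42 and 6.96 against 6.04, 4.67, 6.33 and 5.76, a difference of 1.69 ± 0.79 (adjusted p = 0.574).

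Notch pathway genes were split. Of 18 tested, 10 had a difference above 0 and 8 below, and the median was 0.02. Over all 12465 genes tested these counts were 6062 and 6403. In 4 of 4 mice 4 genes were higher (Dtx1, Rbpj, Maml2 and Jag2), against 6.31% of all genes tested. The receptor Notch1 differed by -0.01 ± 0.35. Rbpj, the DNA-binding partner of activated Notch, differed by 0.80 ± 0.27, with members higher in 4 of 4 mice. Among the ligands, Jag2 (chr12:112907819-112929776) was detected in 23 of 61 members (37.7%) and 10 of 69 comparison cells (14.5%). Its mean log2 values were 1.79, 2.73, 1.05 and 0.90 in members and 0.44, 0.98, 0.57 and 0.17 in comparison cells, a difference of 1.08 ± 0.58 (SD, n = 4; adjusted p = 0.792). In pool 1 of mouse 2A the order was opposite, with 1.23 against 1.63.

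The Notch target Dtx1 (chr5:120680202-120711927), an E3 ligase of the Deltex family, was detected in 42 of 61 members and 32 of 69 comparison cells. Members had 3.41, 3.06, 4.34 and 2.92 against 2.08, 1.67, 3.63 and 2.80, a difference of 0.89 ± 0.60 (adjusted p = 0.889) that was close to 0 in mouse 2B. Hes1 (chr16:30064384-30067796), a repressor induced by Notch, varied widely among the mice. Members had 4.604, 4.55, 4.94 and 2.75 and comparison cells 2.74, 3.08, 2.13 and 4.08, so that 3 mice were higher and 2B was lower, by -1.33. The mean difference of 1.20 ± 1.78 was within the spread between mice; without mouse 2B it was 2.05 (adjusted p = 0.880), and in pool 1 alone 2.60 (adjusted p = 0.947).

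The partner chains of the IL-2 receptor had small differences. Il2rb, the beta chain, differed by 0.33 ± 0.37 and was detected in 24 members and 18 comparison cells. Il2rg, the common gamma chain, differed by -0.09 ± 0.37 and was detected in every Kit-high cell. Il7r, the IL-7 receptor alpha chain, differed by 0.26 ± 0.91. Of the 19 tested genes of the receptor and its signalling, 13 had a difference above 0, against 6062 of all 12465 genes. The median was 0.26. In 4 of 4 mice 3 genes were higher (Il2rb, Il15ra and Stat5a), against 6.31% of all genes tested.

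Downstream of the receptor, Stat5a (chr11:100859351-100885169), a transcription factor activated by IL-2 and IL-7, had member means of 6.97, 7.94, 7.17 and 7.30 and comparison means of 6.20, 7.09, 6.69 and 5.64. The difference was 0.94 ± 0.50 (SD, n = 4; adjusted p = 0.792), and pool 2 of mouse 2A went the other way, with 6.88 against 7.68. Stat3 (chr11:100885098-100939540), whose end overlaps that of Stat5a on the opposite strand, had 7.02, 8.26, 6.87 and 8.16 against 5.90, 6.49, 7.06 and 6.92. It differed by 0.99 ± 0.83, with mouse 2A lower. The sources used here do not say whether reads were assigned by strand. Socs2, a feedback inhibitor of cytokine signalling, differed by 0.73 ± 0.75 and was detected in 29 members and 35 comparison cells.

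Most progenitor genes had lower values in members. Of 30 tested, 22 had a difference below 0, against 6403 of all 12465 genes tested. In 4 of 4 mice 9 were lower (Cd34, Flt3, Hoxa9, Meis1, Ccr9, Ccr7, Hmga2, Csf2rb and Csf2rb2), against 6.71% of all genes, and 1 was higher. The median difference was -0.22, and 7 of the 30 were lower at an unadjusted p under 0.05 by limma, against 2.6% of all genes. None passed the adjusted test.

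Flt3 (chr5:147330741-147400489, minus strand) showed the widest difference in this list. Members had 2.44, 1.05, 2.33 and 2.65, and comparison cells 4.16, 5.11, 3.80 and 4.29. The means of the classes did not overlap, which held for 1.56% of all genes in this direction. The difference was -2.22 ± 1.23 (SD, n = 4; limma SE 0.51, adjusted p = 0.792), and mouse 1B, at -4.06, lay far from the other 3 mice, which had -1.72, -1.45 and -1.64. Without mouse 1B it was -1.61 (adjusted p = 0.895). Flt3 was detected in 27 of 61 members (44.3%) and 52 of 69 comparison cells (75.4%), in the same order in pool 1 (15 of 32 against 36 of 46) and pool 2 (12 of 29 against 16 of 23). Flt3 is also a dendritic cell gene, and the summed linear level of the dendritic list had a median of 232.4 (8.33 to 1754) in members and 330 (0.846 to 11142) in comparison cells. When cells high in other cell type genes were left out, the Flt3 difference was -2.23. That step removed only 3 of 61 members and 3 of 69 comparison cells, and the dendritic list used for it holds Flt3 itself. The part of dendritic cells in the Flt3 difference was not tested.

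Cd34 (chr1:194938819-194961279), a sialomucin of haematopoietic progenitors, was detected in every Kit-high cell. Members had 8.21, 8.74, 9.01 and 8.56 and comparison cells 9.06, 9.06, 9.31 and 9.64, a difference of -0.64 ± 0.39 (SD, n = 4; adjusted p = 0.792) with a gap of less than 0.1 between the classes. Hmga2 (chr10:120361275-120476469), a chromatin protein of fetal stem cells, was detected in 24 members and 44 comparison cells. Its means were 1.87, 0.75, 0.93 and 1.82 against 3.10, 2.48, 2.31 and 2.53, and it differed by -1.26 ± 0.42 (adjusted p = 0.792). Hoxa9, a homeobox factor of progenitors, differed by -0.98 ± 0.30 and was detected in 18 members and 33 comparison cells.

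Setting Tcf7 and Flt3 side by side in each cell showed how far the classes overlapped. Tcf7 without Flt3 was found in 32 of 61 members (52.5%, interval 39.3 to 65.4%) and 15 of 69 comparison cells (21.7%, interval 12.7 to 33.3%). The intervals pool the cells of the 4 mice and cover counting error only, and the shares were not tested. Both genes were detected in 25 members (40.98%) and 41 comparison cells (59.4%). Flt3 without Tcf7 was found in 2 members and 11 comparison cells, and neither gene in 2 of each.

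The other genes with the smallest p among lower values were Pak1ip1, Dbp, Nek6 and Eno1, each with an adjusted p of 0.792. Pak1ip1, a ribosome biogenesis factor, had 6.33, 5.52, 5.16 and 5.50 against 7.14, 6.71, 6.81 and 6.90, a difference of -1.26 ± 0.36. Dbp, a transcription factor of the circadian clock, was detected in 6 members and 20 comparison cells and differed by -0.98 ± 0.24. Nek6, a mitotic kinase, differed by -1.92 ± 0.95, with 2.38, 1.84, 2.08 and 3.17 against 4.56, 4.96, 3.57 and 4.10. Eno1, the glycolytic enolase, differed by -0.47 ± 0.19, and the mouse genome holds a near-identical copy with which it may share reads. In all 4 genes the class means did not overlap between mice, which held for 1.56% of all genes in this direction. The genes were picked by p from the same differences, which favours such a gap.

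**Figure D3:**
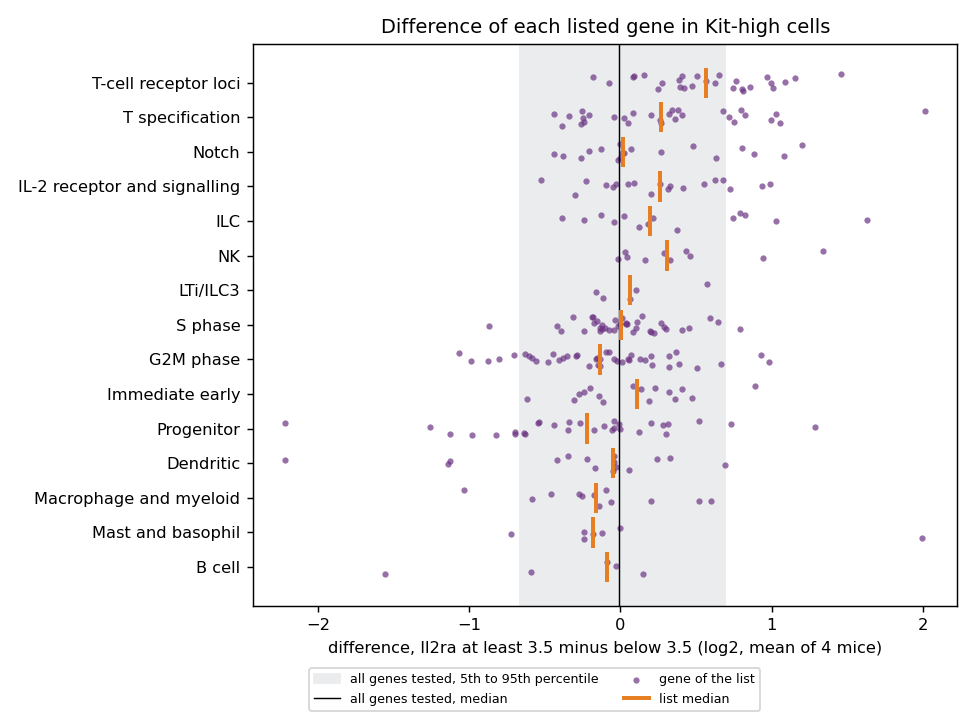
Difference in log2 value between members and comparison cells (mean of 4 mice) for each tested gene of 15 lists, with the list median in orange, and the 5th to 95th percentile (-0.67 to 0.69) and median of all 12465 genes as a grey band and a black line. The median of the T-cell receptor loci is 0.57 and that of the progenitor list -0.22.

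Splitting the comparison cells by whether any Il2ra was detected gave 3 steps of 47, 22 and 61 cells, with only 3 to 8 cells of the middle class in a mouse. Tcf7 was at a mean of 4.73 with Il2ra not detected, 4.45 with Il2ra below the threshold and 6.59 in members. Flt3 was at 4.62, 4.49 and 2.12, so that by these means the middle class lay with the cells without Il2ra for both genes. For Flt3 this did not hold in every mouse. In 2A its means were 4.89, 2.89 and 2.33, with the middle class nearer to the members, and in 2B 4.66, 3.93 and 2.65. The middle class mean of Flt3 in 1B, 6.67, rests on 3 cells. As a mean of the mice, Dtx1 was at 2.15, 2.83 and 3.43, with the middle class in between. Within single mice this held in 1B only: the middle class was lowest in 1A and highest in 2A and 2B. By the share of cells with the gene detected the order was not the same: Tcf7 was at 78.7%, 86.4% and 93.4%, Flt3 at 76.6%, 72.7% and 44.3%, and Dtx1 at 36.2%, 68.2% and 68.9%. The shares of Jag2 (10.6%, 22.7% and 37.7%), Bcl11b (2.13%, 9.09% and 21.3%) and Hmga2 (68.1%, 54.5% and 39.3%) put the middle class in between. Those of Bcl11b rest on 1, 2 and 13 cells. Gata3 did not follow this order, with the middle class lowest by share (89.4%, 81.8% and 93.4%) and by level (5.21, 4.31 and 5.86). The middle class held cells of mouse 2B on plate JW8 with Il2ra of only 0.46 to 0.87, close to no reads. The part of the plate in the order of the classes was not tested. The shares pool the cells of the mice and were not tested, and the 3 classes drew unequally on the mice. In the order of the mice they held 15, 19, 5 and 8, then 5, 3, 6 and 8, then 15, 11, 17 and 18 cells.

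**Figure D4:**
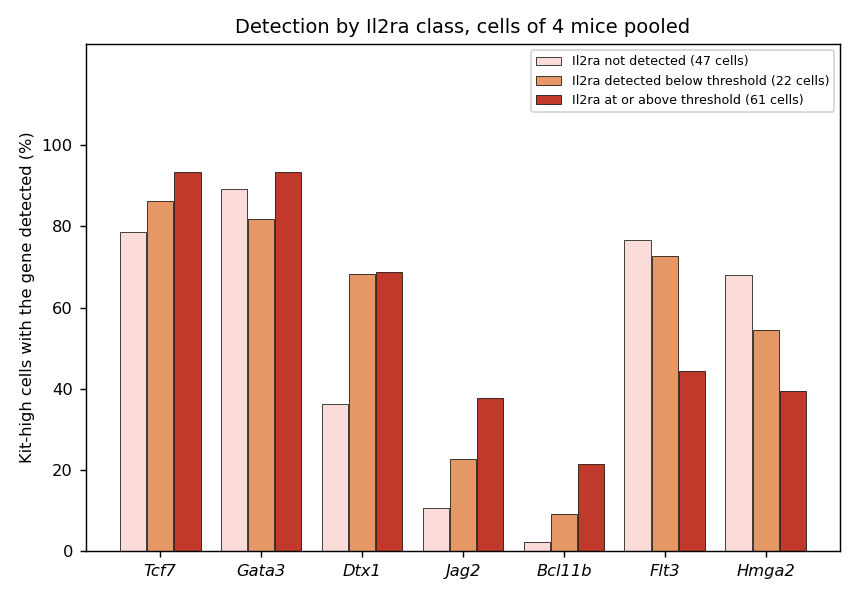
Percent of Kit-high cells in which each of 7 genes was detected, for cells with Il2ra not detected (47), detected below 3.5 (22) and at least 3.5 (61), pooled over the 4 mice. From the first class to the last, Tcf7 is at 78.7%, 86.4% and 93.4%, Flt3 at 76.6%, 72.7% and 44.3%, and Dtx1 at 36.2%, 68.2% and 68.9%. Gata3 is at 89.4%, 81.8% and 93.4%. The classes draw unequally on the mice, and part of the middle class lies close to the level of no reads.

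The reporter loci Id2 and Rora encode factors that act in innate lymphoid cells (ILCs). Id2 differed by 0.79 ± 0.67 (adjusted p = 0.898) and was detected in 57 of 61 members and 57 of 69 comparison cells. By pool these were 30 of 32 and 35 of 46 cells in pool 1, and 27 of 29 and 22 of 23 in pool 2. Rora was detected in 20 of 61 members and 12 of 69 comparison cells; in pool 1 these were 7 of 32 and 2 of 46 cells, and in pool 2 13 of 29 and 10 of 23. Its level differed by 0.37 ± 0.34 (adjusted p = 0.912). The reporter transcripts tagBFP and mTeal differed by 0.45 ± 0.99 and 0.28 ± 0.29. The transcript of hCD2 at the Gata3 locus differed by 0.01 ± 0.49, beside 0.75 ± 0.18 for Gata3 itself.

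Lists of other cell types gave mixed counts. Of all genes tested, 6.31% were higher and 6.71% lower in 4 of 4 mice, and the ILC and NK lists, among others, lay above the first share. The dendritic list, which holds Flt3 and Ccr9 of the progenitor list, lay above the second. Of its 15 tested genes 0 were higher and 4 lower in 4 of 4 mice. Of 14 tested ILC genes 6 were higher in 4 of 4 mice, and the list's summed linear level had a median of 1090 (212.1 to 11338) in members and 740 (185.6 to 6758) in comparison cells. The widest differences, named after their values were seen, were those of Zbtb16, which encodes PLZF, at 1.03 ± 0.70, and Il17rb, of the IL-25 receptor, at 1.63 ± 1.82. Of the list 10 genes had a difference above 0 and 4 below (Pdcd1, Il18r1, Il1rl1 and Nfil3). Zbtb16 was detected in 10 of 32 members and 4 of 46 comparison cells in pool 1, and in 15 of 29 and 11 of 23 in pool 2. Of 10 NK genes 5 were higher in 4 of 4 mice, with a summed median of 469 (40.3 to 2877) against 326 (0 to 1341). Of 12 macrophage and myeloid genes 0 were higher and 5 lower in 4 of 4 mice, with a summed median of 808 (13.4 to 3833) against 1040 (12.1 to 12369). Of the erythroid and megakaryocyte list 3 genes were tested, all 3 with a difference above 0 and a median of 1.09, and its summed median was 105.2 (0 to 2644) against 23.3 (0 to 1579). In that list the integrin gene Itga2b differed by 1.24 ± 0.75 and the globin gene Hbb-bs, which has near-identical copies, by 1.09 ± 0.66, each higher in 4 of 4 mice and named after their values were seen, while Epor, the erythropoietin receptor, was not detected in any Kit-high cell. The part of these genes in the differences above was not tested.

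The mast and basophil list was uneven. Its summed median was 271.4 (0 to 5610) in members and 66.5 (0 to 5862) in comparison cells. Yet 6 of 7 tested genes had a difference below 0, against 6403 of all 12465 genes. The exception was Cpa3, a carboxypeptidase of mast cells and of early progenitors, at 1.99 ± 1.15 (adjusted p = 0.717, named after its values were seen), with member means of 6.17, 6.82, 7.61 and 7.38 against 5.50, 3.55, 5.04 and 5.89. Cma1, a mast cell protease, was not detected in any member, and neither was the B-cell factor Pax5.

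Proliferation genes had list medians near 0, but single genes differed. Mki67 and Top2a were both detected in 52 of 61 members (85.2%) and 58 of 69 comparison cells (84.1%). The median difference was 0.00 over 38 S phase genes and -0.14 over 42 G2M genes. In 4 of 4 mice 5 S phase genes were higher and 0 lower, against 6.31% and 6.71% of all genes. Of the G2M genes 1 was higher and 3 were lower in 4 of 4 mice, and 26 had a difference below 0. Of 16 immediate early genes, which respond to cell handling, 0 were higher and 0 lower in 4 of 4 mice, against 6.31% and 6.71% of all genes.

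Without the Kit limit, the comparison of 88 cells with Il2ra of at least 3.5 and all other cells gave another count. Of 12437 genes tested, 1.16% were higher and 0.434% (54 genes) lower at an adjusted p of 0.05. Tcf7 was higher by 2.85 (adjusted p = 0.00297), Trbc1 by 2.56 (adjusted p = 0.0003), Deptor by 2.74 (adjusted p = 0.00366), Gata3 by 1.38 (adjusted p = 0.0393) and Lck by 1.38 (adjusted p = 0.00408), all on the log2 scale. Stat5a was higher by 1.79 (adjusted p = 0.0162) and Stat3 by 1.10 (adjusted p = 0.0455), while Flt3 was lower, at -1.68 (adjusted p = 0.0372). Of the T specification list 6 of 32 genes were called higher (Trbc2, Tcf7, Gata3, Trbc1, Lck and Tox) and 2 lower (Cd2 and Spib), of the dendritic list 6 of 15 were called lower, and of the Notch list none of 19 was called. The progenitor list went both ways: of 31 genes, 6 were called higher (Adgrg1, Myb, Mpo, Mycn, Pdgfrb and Cd34) and 4 lower (Irf8, Ccr9, Csf2rb2 and Flt3). Cd34 was called higher, by 1.20 (adjusted p = 0.0372), opposite to its value of -0.64 among Kit-high cells.

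In that comparison the 2 groups also differed in Kit and in other cell types. Kit had a median of 8.63 in the cells at the Il2ra threshold and 7.78 below it, and 7 of 88 cells (7.95%) against 61 cells (35.3%) were high in dendritic, mast and basophil, macrophage or NK genes. When those cells were left out, 0 genes were called by limma (814 at an unadjusted p under 0.05), and with the Kit value as a covariate 0 were called (800). The Tcf7 difference was 2.29 (adjusted p = 0.106) and 1.82 (adjusted p = 0.225) in these 2 fits, which were chosen after seeing the data, and that of Cd34 was -0.41 and -0.58. Other differences were smaller there than without the Kit limit alone: 1.34 and 1.47 for Trbc1, 1.68 and 1.58 for Deptor, 1.03 and 0.79 for Gata3, 0.38 and 0.45 for Lck, 0.79 and 0.54 for Stat5a and 0.76 and 0.52 for Stat3. Flt3 was at -1.83 and -2.20. Over the alternatives that kept the Kit limit, the adjusted p ran from 0.445 to 0.947 for Tcf7, Trbc1 and Deptor, from 0.580 to 0.947 for Flt3, from 0.761 to 0.969 for Gata3 and from 0.899 to 0.9995 for Lck. It ran from 0.782 to 0.947 for Cd34 and Stat3, from 0.761 to 0.947 for Stat5a and from 0.838 to 0.983 for Hes1.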

How the data were processed

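Single ETPs were sorted into plates, lysed, reverse-transcribed with oligo-dT primers, amplified and sequenced in 2 pools, per the labels' protocols. The values deposited by the authors are normalized expression on a log2 scale, batch-corrected by them in 4 sets of cells, which were recognised here by exact shared values. Per the submitters' processing notes, Salmon and GRCm38 were used; the sources used here do not give versions, normalization or filters. The matrix holds 261 cells (131 at or below the Kit median) and 13737 features, of which 13578 matched GENCODE vM21 symbols; positions are those of GRCm38. Loci of the reporter transcripts come from what is known of the strain. Another reporter locus and 1 gene of the naming rule are not reported here. The planned count test was not needed.

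A gene was detected in a cell where its value differed by more than 1e-06 from its repeated lowest value in the set, a level that 12054 genes had in all 4 sets. Read depth is unknown, and no doublet caller was run; each column is 1 sorted well. Genes detected in at least 10% of Kit-high cells were tested, without Il2ra and Kit. Per mouse, the coefficient of membership was fitted with pool as a term, over strata with at least 3 cells of each class, and the 4 coefficients were tested with limma 3.58.1 in R 4.3.3 (moderated with trend, intercept only, two-sided, Benjamini-Hochberg at 0.05). Differences and SDs are those of the 4 coefficients. The moderated test draws each gene's variance toward the trend over all genes. The script was tested on simulated data. Over all cells, 88 reached the Il2ra threshold and 173 did not, and 144 genes were higher. Summed levels are linear, above no reads. A cell was high in other cell type genes when a list's mean lay more than 3 median absolute deviations above the median.

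Named genes were the 5 with the smallest p in each direction because none passed, the label markers, the 3 widest differences of the T specification, Notch, IL-2 receptor and progenitor lists, Flt3, Cd34 and the reporter loci. Members and lists were chosen with earlier results of these data known. Alternatives changed the filter, strata, unit, weights, no-read level, depth term, ranks, trend, thresholds, Kit limit, cells and mice; 3 were added after seeing the data.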

Additional observations from a re-analysis of the deposited data

Results flagged for a closer look

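Among the differences of the named genes in the 4 mice, 2 had a mouse far from the other 3 by Dixon's criterion, which flags about 1 in 20 groups by chance. The Flt3 difference of mouse 1B was -4.06, against -1.72 in 1A, -1.45 in 2A and -1.64 in 2B. The TdTomato difference of mouse 2A was 0.76, in a transcript detected in 5 members and 1 comparison cell of all mice.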

How the results depend on the processing

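No gene was called in either direction in 22 of 23 alternatives; all cells without the Kit limit called 1.16% of 12437 genes higher and 0.434% lower. Leaving out each mouse in turn gave 0% called each time and a member share of 43.04 to 52.2%. The share was 64.5% with Il2ra detected as the threshold and 33.99% over all cells. Of 29 named genes tested, 23 kept their sign in every alternative that gave them a value (Bcl11b and mTeal had none in 3 alternatives each) and 12 passed the threshold without the Kit limit, where Cd34 turned to 1.20, Id2 to -0.39, Rora to -0.17 and tagBFP to -0.71. Lck turned to -0.0593 inside plates, -0.00051 with mouse by pool as the unit, -0.28 with Il2ra detected, -0.15 with Il2ra of at least 5, -0.0323 without cells high in other cell type genes, -0.0395 without the first 8 wells, -0.0223 with S and G2M covariates and -0.0458 without mouse 1A and -0.0548 without 1B. The hCD2 transcript turned to -0.11 with levels under 10 set to no reads, -0.0039 with detected genes as a covariate, -0.42 with Il2ra detected, -0.23 with Il2ra of at least 5, -0.0482 with S and G2M covariates, -0.13 without mouse 2A, -0.12 without 2B and -0.26 in pool 1 alone, and tagBFP to -0.28 with Il2ra detected. The cause was not tested. Members and comparison cells were paired inside each mouse in every fit. Mice 2A and 2B share correction sets, and no source used here says whether they are independent animals. Depth limits the shares of low genes such as Bcl11b and Jag2, whose missing detections may be missed transcripts.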
